A study of Homo sapiens with 12 samples.

Results

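The genes described here are 10 components and direct targets of the NF-κB pathway: the subunit genes NFKB1, NFKB2 and RELB, the inhibitor genes NFKBIA and NFKBIE, and the target genes TNFAIP2, TNFAIP3, BIRC3, TRAF1 and ICAM1. They were chosen by name, with earlier results of these data known. An array probe was assigned to a gene when the RefSeq accession it carries matched the symbol of that gene. Of these 10 genes, 9 had a probe, 1 each, among 27708 genes on the array, and no probe was matched to NFKB2. All 9 probes were well above background on all 12 arrays. The cells were Daoy, an established line of human medulloblastoma (MB), grown in astrocyte conditioned medium (ACM) from primary neonatal rat astrocytes or in DMEM as control. Each passage lasted 48 h, and cells stayed in either medium for 1 (P1) or for 3 of them (P3), giving the groups P1 ACM, P1 DMEM, P3 ACM and P3 DMEM with 3 replicates each, and fetal bovine serum was part of the culture medium in every group. A single cell line was used, and the labels describe independent experiments without saying whether a replicate number marks a shared day.

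NF-κB is a family of dimeric transcription factors held in the cytoplasm by IκB proteins. Signals from receptors for tumor necrosis factor, interleukin-1 or microbial products activate kinases that mark IκB for degradation, and the freed dimers enter the nucleus and bind κB sites in DNA. Among the genes they switch on are those of their own inhibitors and subunits, which makes transcripts such as NFKBIA and TNFAIP3 common readouts of recent pathway activity.

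Because the pathway acts on several of its own genes, the DNA next to their starts was searched for the motif NF-κB binds. Promoter windows of 250 bases before to 50 after each annotated start were available from RefSeq (GRCh38.p14) for 8 of the 10 genes, NFKBIE and RELB being the ones not listed. The κB consensus, a 10-base motif searched on both strands, was found in at least 1 window of 5 of these 8 genes (NFKB1, NFKB2, NFKBIA, TNFAIP3 and BIRC3), and in 6 of their 13 windows. A match was held by 11.3% of all 35116 windows, and by at least 1 window of 13.3% of all 27305 genes. Below, the matched stretches before the start are written 5′ to 3′ on the strand of the gene for the 4 of these genes that also had a probe, with the motif in capitals.
NFKBIA, chr14:35404801-35404850, minus strand: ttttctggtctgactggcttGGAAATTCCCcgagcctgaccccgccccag
TNFAIP3, chr6:137867172-137867233, plus strand: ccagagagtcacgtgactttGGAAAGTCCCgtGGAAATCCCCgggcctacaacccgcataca
NFKB1, chr4:102501290-102501339, plus strand: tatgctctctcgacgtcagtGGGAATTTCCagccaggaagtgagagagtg
BIRC3, chr11:102317265-102317378, plus strand: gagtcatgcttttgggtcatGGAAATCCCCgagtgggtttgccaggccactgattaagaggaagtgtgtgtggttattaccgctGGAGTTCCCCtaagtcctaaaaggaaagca
TNFAIP3 and BIRC3 each held 2 matches in the stretch shown, and NFKBIA and NFKB1 held 1. A match is a run of letters and not evidence of binding in these cells.

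Some features of the arrays touch every result that follows. The 12 arrays lay on 3 slides of 4, told apart by their scan times, with P1 ACM 1 to 3 and P3 ACM 1 on slide 1, P3 ACM 2 and 3 and P1 DMEM 1 and 2 on slide 2, and P1 DMEM 3 and P3 DMEM 1 to 3 on slide 3. No slide held both media of the same passage. The share of probes well above background was 91.0% to 94.6% on slide 1, 74.3% to 80.3% on slide 2 and 88.1% to 91.0% on slide 3, and the median intensity of the arrays ran from 265.2 to 606.2. The table of processed values that the authors deposited carries other sample labels than the scanner output: each of its 12 columns ranked its probes as the array of a different sample (Spearman at least 0.999986), and which labels are right is not settled by the sources used here. The scanner labels are used below unless stated. The Daoy cells were checked against 10 markers of MB lines, of which 8 to 10 per array were well above background, ATOH1 on 2 of 12 arrays. The summed linear level of 9 microglia and macrophage markers was 17.7 to 25.3 times the 75th percentile in P1 ACM and 13.1 to 18.6 in P1 DMEM, whereas at P3 it was 15.2 to 22.8 with ACM and 10.7 to 13.0 with DMEM. That sum is mostly ITGAM, which lay at 3.21 to 4.51 on the log2 scale, and without it the sum of the other 8 was 1.80 to 2.60 and 1.58 to 2.05 at P1 and 1.78 to 2.54 and 1.45 to 1.72 at P3, ACM first. Of that list, P2RY12 was well above background on 6 arrays and CX3CR1 on 8, and AIF1 had no matched probe. At P1, CX3CR1 (2.16) and P2RY12 (1.02) passed as higher in ACM, 2 of the 9, beside 13.5% of all genes. At P3 it was CD68 (1.22), 1 of the 9, beside 0.91%. Passing means more than 2-fold at an unadjusted limma p of 0.05 or less. The limma adjusted p of each was 0.103 or more. The median log2 difference of these 9 markers, ACM minus DMEM, was 0.47 at P1 and 0.57 at P3. Under the labels of the authors' table it was 0.12 at P1 and −0.36 at P3, so the direction at P3 depends on the labels. The sum of 9 astrocyte markers ranged from 4.91 to 7.21 over all arrays, with GFAP and S100B each well above background on 7 of the 12. GJA1 and GLUL were the brightest of that list, so the sum hides dimmer markers. At P1, S100B (2.18) and ALDH1L1 (1.65) passed the same thresholds as higher in ACM, 2 of 8 tested, beside 13.5% of all genes. AQP4 passed as lower at P1 (−1.37) and P3 (−1.94), beside 0.0989% and 0.819%. The limma adjusted p of each was 0.103 or more. The part of these markers in the results below was not tested.

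Levels are given on a log2 scale, as the background-corrected intensity relative to the 75th percentile of its array, so that 0 is that percentile. Probes differ in brightness, so a level is compared between samples and not between genes.

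NFKBIA encodes IκBα, the inhibitor that is lost and made anew with each round of NF-κB activation. In DMEM, its level in replicates 1, 2 and 3 was 1.90, 1.73 and 3.31 at P1 and 1.86, 2.01 and 3.20 at P3. In ACM, the corresponding levels were 2.55, 2.29 and 1.60 at P1 and 3.19, 2.61 and 1.99 at P3. The order of the replicates was turned between the media: replicate 3 was the highest of its group in DMEM and the lowest in ACM, at both passages, so that the ACM and DMEM arrays overlapped.

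NFKBIE encodes IκBε, another inhibitor of the same family. Its DMEM levels were 0.63, 0.57 and 2.03 at P1 and 0.45, 0.61 and 1.65 at P3. In ACM they were 1.00, 1.19 and 0.40 at P1 and 1.21, 0.72 and 0.94 at P3. Here too the DMEM arrays of replicate 3 were the highest of the 12, and P1 ACM replicate 3 was the lowest.

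NFKB1 encodes the p105 precursor of the subunit p50. Its level varied least of the 9 genes, over a range of 0.95 on the log2 scale across the 12 arrays. The DMEM values were 0.05, 0.16 and 0.97 at P1 and 0.03, 0.02 and 0.71 at P3. The ACM values were 0.20, 0.27 and 0.10 at P1 and 0.31, 0.14 and 0.31 at P3. Apart from DMEM replicate 3 all arrays lay between 0.02 and 0.31.

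RELB encodes the RelB subunit, best known from the alternative branch of the pathway. Its level in DMEM was 2.51, 2.39 and 3.85 at P1 and 2.45, 2.52 and 3.40 at P3. In ACM it was 2.63, 2.60 and 1.65 at P1 and 2.80, 2.63 and 2.36 at P3. In replicates 1 and 2 each ACM array was above the DMEM array of the same number, and in replicate 3 below it.

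TNFAIP3 encodes A20, a ubiquitin-editing enzyme that shuts off signalling to NF-κB. In DMEM it stood at 0.13, 0.05 and 2.40 at P1 and −0.47, −0.66 and 2.02 at P3. In ACM it stood at 0.59, 0.47 and −0.28 at P1 and 1.37, 0.93 and 0.03 at P3. Its range over the 12 arrays was 3.06, and replicate 3 was at the top of both DMEM groups and at the bottom of both ACM groups.

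BIRC3 encodes cIAP2 and TRAF1 an adaptor, both of which act in signalling from receptors of the tumor necrosis factor family. BIRC3 was −0.63, −0.27 and 1.23 in P1 DMEM, −1.41, −1.67 and 0.60 in P3 DMEM, 0.09, 0.53 and −1.83 in P1 ACM and 0.82, −0.12 and −1.27 in P3 ACM. TRAF1 was −1.22, −1.08 and 0.53 in P1 DMEM, −1.38, −1.47 and −0.18 in P3 DMEM, −0.34, 0.10 and −1.86 in P1 ACM and 0.34, −0.61 and −1.07 in P3 ACM. Both genes had their lowest level of all 12 arrays in P1 ACM replicate 3 and their highest in P1 DMEM replicate 3.

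TNFAIP2, a gene named for its induction by tumor necrosis factor, was 3.18, 3.50 and 4.76 in P1 DMEM, 3.35, 2.77 and 4.46 in P3 DMEM, 2.86, 3.38 and 2.73 in P1 ACM and 3.50, 3.45 and 3.09 in P3 ACM. ICAM1, which encodes a cell surface adhesion molecule bound by leukocyte integrins, was 1.08, 1.38 and 2.66 in P1 DMEM, 1.18, 1.61 and 2.25 in P3 DMEM, 1.67, 1.88 and 1.22 in P1 ACM and 2.29, 1.24 and 1.62 in P3 ACM. For TNFAIP2 both DMEM arrays of replicate 3 were the highest of all, whereas for ICAM1 P3 ACM replicate 1 stood between them. As Daoy cells were measured in bulk, a change in RNA per cell and a change in the share of cells that express a gene cannot be told apart.

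**Figure D1:**
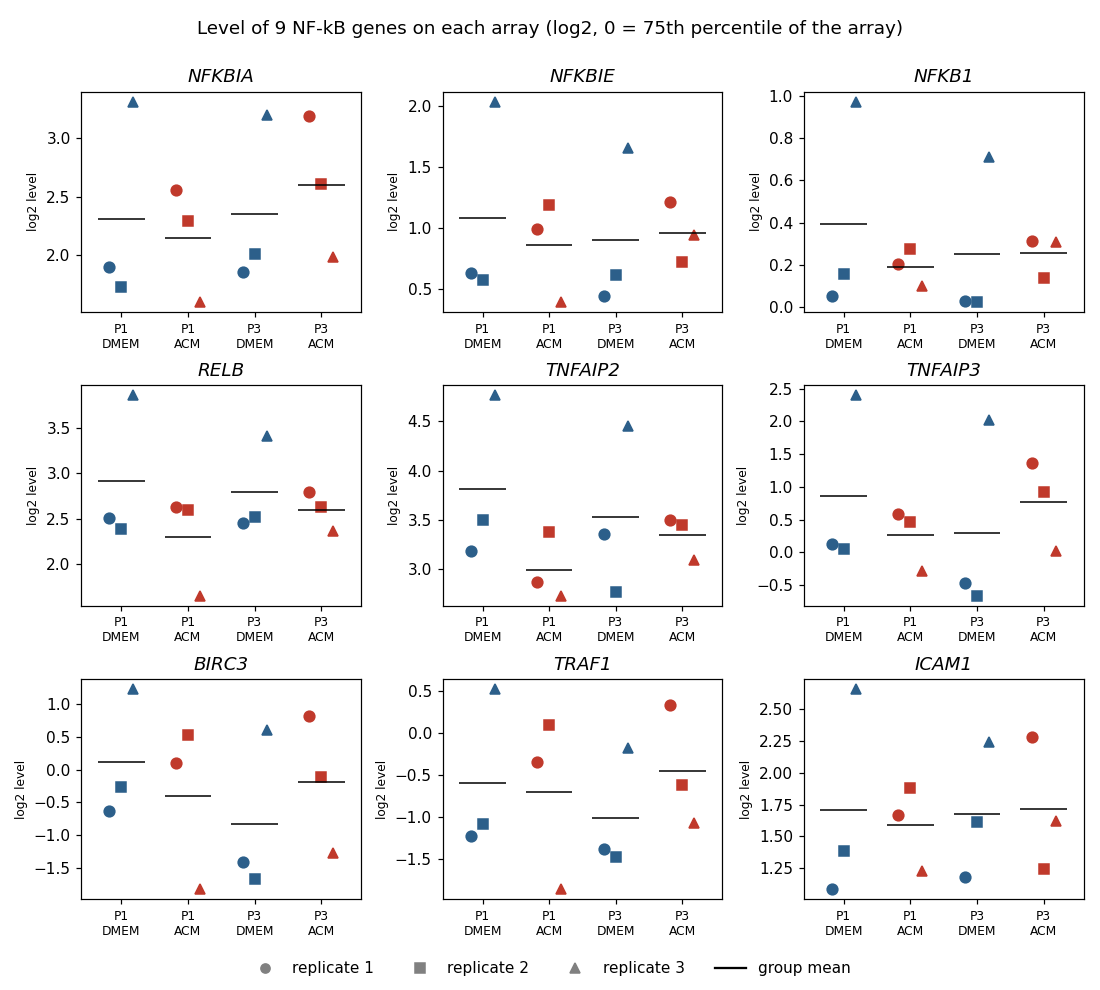
Level of the 9 measured genes on each of the 12 arrays, in log2 units with 0 at the 75th percentile of the array; symbols mark the replicate number, blue DMEM, red ACM, and black lines the mean of 3 arrays. Replicate 3 (triangles) was the highest array in both DMEM groups for all 9 genes, and the NFKBIA values of that replicate were 3.31 and 3.20 in DMEM against 1.60 and 1.99 in ACM.

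ACM against DMEM at P1 asked what 48 h in astrocyte medium did to these transcripts. None of the 9 genes passed the thresholds of the study, more than 2-fold change and an unadjusted p of 0.05 or less, and 0 had p of 0.05 or less in limma. Among all 25275 genes tested 13.5% passed the thresholds as higher in ACM and 0.0989% as lower, and 24% had p of 0.05 or less. The mean was lower in ACM for all 9 genes, by 0.11 (TRAF1) to 0.83 (TNFAIP2) on the log2 scale, with a median difference of −0.22 beside 0.15 for all genes. For TNFAIP2 the group means were 2.99 ± 0.34 in ACM and 3.82 ± 0.84 in DMEM (SD, n = 3), a difference of −0.83 with an SE of 0.46 and a limma adjusted p of 0.331, the smallest of the 9. For NFKBIA they were 2.15 ± 0.49 and 2.31 ± 0.87, a difference of −0.16 with an SE of 0.50 and a limma adjusted p of 0.908. The arrays of the media overlapped for every one of the 9 genes, whereas they did not overlap for 35.9% of all genes.

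The sign of the P1 means rested on single arrays for 7 of the 9 genes. Without P1 DMEM replicate 3, the differences of NFKBIA, NFKBIE, NFKB1, TNFAIP3 and ICAM1 became 0.33, 0.26, 0.09, 0.17 and 0.36, and without P1 ACM replicate 3 those of BIRC3 and TRAF1 became 0.21 and 0.47. RELB and TNFAIP2 kept a negative sign whichever array was left out, but without P1 DMEM replicate 3 their differences shrank from −0.62 to −0.15 and from −0.83 to −0.35. Without P1 DMEM replicate 1 TNFAIP2 passed the thresholds, with a difference of −1.14 and an unadjusted limma p of 0.0427.

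At P3 the 9 genes had no common sign in the fit without slide, and with slide as a fixed block all 9 were higher in ACM by sign, by 0.84 (NFKB1) to 2.49 (TNFAIP3). The blocked value is a sum over slides 2 and 3. On slide 2 it takes P3 ACM replicates 2 and 3 minus P1 DMEM replicates 1 and 2. On slide 3 it takes P1 DMEM replicate 3, a single array, minus P3 DMEM. P3 ACM replicate 1 does not enter it. Without slide, none passed the thresholds and 0 had an unadjusted limma p of 0.05 or less, against 0.91% of all genes past the thresholds as higher in ACM, 0.819% as lower and 7.27% at p of 0.05 or less. The mean was higher in ACM for 7 genes and lower for RELB (−0.20) and TNFAIP2 (−0.18), with a median of 0.05 beside 0.00 for all genes. BIRC3 differed most, with means of −0.19 ± 1.05 in ACM and −0.83 ± 1.24 in DMEM (SD, n = 3), a difference of 0.64 with an SE of 0.81 and a limma adjusted p of 0.846. Over the arrays left out 1 at a time this difference ran from 0.13 without P3 ACM replicate 1 to 1.35 without P3 DMEM replicate 3. For NFKBIA the means were 2.60 ± 0.60 and 2.36 ± 0.73, a difference of 0.24 with an SE of 0.50. Again the media overlapped for all 9 genes, and failed to overlap for 9.76% of all genes.

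**Figure D2:**
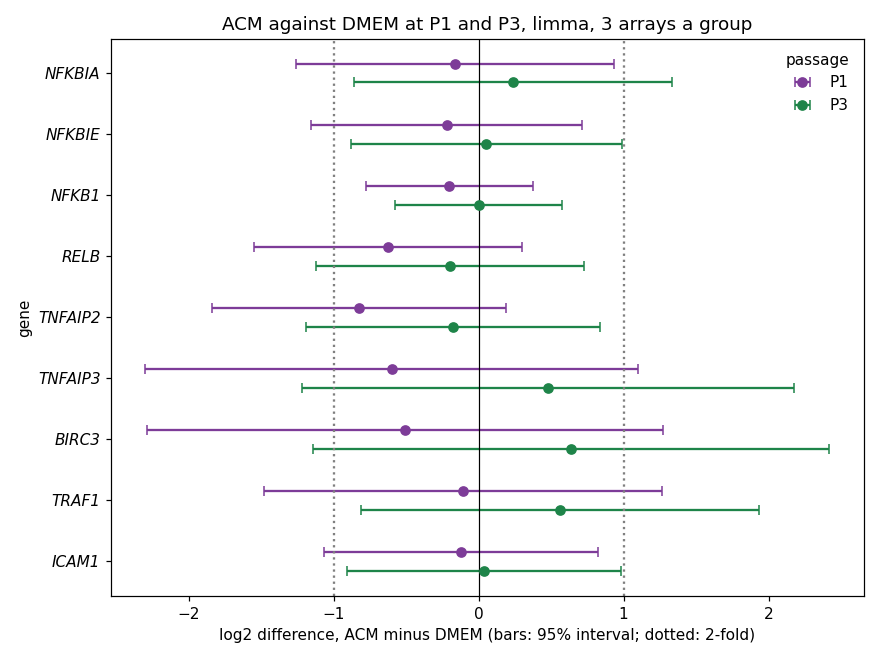
Difference between ACM and DMEM (log2, x axis) for each gene at P1 and P3, with the 95% interval of the limma fit as bars and 2-fold change as dotted lines. Every interval of this fit, which leaves slide out, contains 0, and that of NFKBIA runs from −1.26 to 0.93 at P1 and from −0.86 to 1.34 at P3.

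These intervals set what the arrays could show. For NFKB1, the least variable gene, the 95% interval was −0.78 to 0.37 at P1 and −0.58 to 0.58 at P3, which leaves out a 2-fold change in either direction, but with slide as a fixed block the P3 interval was 0.0029 to 1.68 and holds one. For TNFAIP3 it was −2.30 to 1.1 at P1 and −1.22 to 2.18 at P3, and it holds changes of more than 2-fold in both directions.

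The effect of ACM at P1 was then set against that at P3 in the same fit. The P1 difference was the lower for all 9 genes, by 0.16 (ICAM1) to 1.15 (BIRC3) on the log2 scale, with a median of −0.43 beside 0.17 for all genes. None passed the thresholds and 0 had p of 0.05 or less, while 6.82% of all genes passed as higher, 0.0514% as lower and 8.26% had p of 0.05 or less. The smallest limma adjusted p of the 9 was 0.897. For NFKBIA the change of effect was −0.40 with a 95% interval of −1.95 to 1.15, and for TNFAIP3 −1.08 with an interval of −3.48 to 1.33.

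That comparison depended on the slides. With slide as a fixed block, it sets P1 ACM against P3 ACM replicate 1 within slide 1. To this it joins P1 DMEM replicate 3 against P3 DMEM within slide 3. The value thus rests on a single array of P3 ACM and of P1 DMEM. The 9 genes vary together, so a count of them is not 9 separate observations. With slide as a fixed block in limma, 8 of the 9 genes passed the thresholds for the difference between passages, all lower at P1, by 1.48 (NFKBIE) to 3.28 (BIRC3) and with unadjusted p from 0.0151 to 0.0464, and NFKB1 (−0.84, p 0.0622) did not. In that fit 2.18% of all genes passed as lower and 0.661% as higher, and the adjusted p was 0.945 for each of the 9. The same block gave 1 of the 9 at P3 (NFKBIE, higher in ACM by 1.35), with 1.54% of all genes higher and 1.16% lower, and 0 of the 9 at P1, with 0.613% higher and 1.48% lower. With slide as a random block none of the 9 passed. Within slide 2, the only one with both media, the P3 ACM arrays (replicates 2 and 3) and the P1 DMEM arrays (replicates 1 and 2) differed by 0.48 for NFKBIA, 0.39 for TNFAIP3 and −0.24 for BIRC3, and this difference mixes medium with passage. With the media of a passage on different slides, medium and slide cannot be fully told apart in these values.

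The sign of the difference turned between replicate numbers. Matching arrays by number is a choice made here, and the values do not show that same-numbered arrays are pairs. Taking each ACM array minus the DMEM array of the same number at P1, NFKBIA differed by 0.65, 0.57 and −1.71 in replicates 1, 2 and 3, and at P3 by 1.33, 0.60 and −1.21. For TNFAIP3 these differences were 0.46, 0.42 and −2.68 at P1 and 1.84, 1.59 and −2.0 at P3. For BIRC3 they were 0.73, 0.81 and −3.06 at P1 and 2.23, 1.55 and −1.87 at P3. ACM was thus above DMEM in replicates 1 and 2 and below it in replicate 3, at P1 and at P3 alike. This pattern of signs was present in 7 of the 9 genes (77.8%) and in 1129 of all 25275 genes (4.47%).

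The remaining genes shared the low value of replicate 3. TNFAIP2 at P1 differed by −0.32, −0.12 and −2.04, without the positive values of replicates 1 and 2, and ICAM1 at P3 by 1.1, −0.37 and −0.63. The median over the 9 genes was 0.46, 0.49 and −2.04 at P1 and 1.1, 0.60 and −1.04 at P3 in replicates 1, 2 and 3, while that over all genes stayed within 0.21 of 0.

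**Figure D3:**
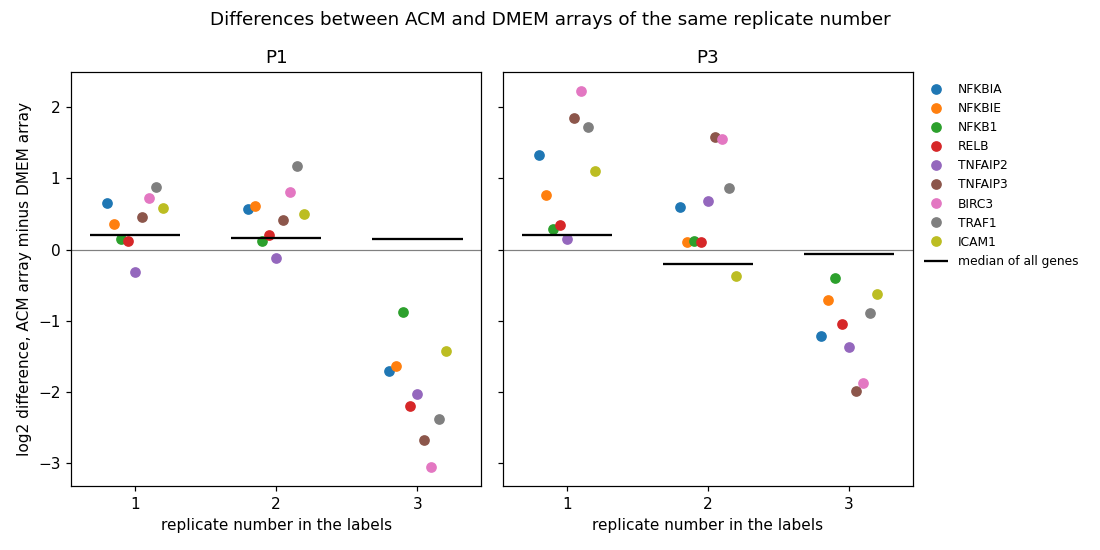
ACM array minus DMEM array of the same replicate number (log2, y axis) for the 9 genes at P1 and P3, with the median of all genes as black bars. All 9 genes lie below 0 in replicate 3 at both passages, NFKBIA at −1.71 and −1.21, and most lie above 0 in replicates 1 and 2.

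A test of this pattern was chosen after its values were seen: an F test in limma of whether the ACM effect differed between replicate numbers, over both passages. All 9 genes had an unadjusted p of 0.05 or less, compared with 5.12% of all genes, from 0.000151 for NFKBIA (F = 38.0) and 0.000539 for TNFAIP3 to 0.0112 for ICAM1 and 0.0167 for NFKB1. The F test restates the turn in sign seen in the same values, and the 9 genes vary together, so their count is not 9 separate observations. After adjustment over all genes the p was 0.712 for each of the 9, and 0 of the 25275 genes passed. Leaving out any 1 array kept 8 or 9 of the 9 genes at p of 0.05 or less.

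The slides of these arrays were as follows. P1 DMEM replicate 3 and P3 DMEM replicate 3, where the 9 genes were high, lay on slide 3, as did P3 DMEM replicates 1 and 2, with NFKBIA levels of 1.86 and 2.01. The part of slide in the pattern was not tested. The ACM arrays of replicate 3 lay on slides 1 and 2, and P1 ACM replicates 1 and 2 shared slide 1 with P1 ACM replicate 3. Over all probes, deviations from the group mean correlated between P1 and P3 by 0.53 for ACM replicate 3 and 0.48 for DMEM replicate 3, compared with 0.12 and 0.12 for ACM and 0.36 and −0.03 for DMEM replicates 1 and 2.

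The pattern by replicate number belongs to the labels of the scanner output. In the table of the authors, the array that the scanner output calls P1 DMEM replicate 3 is labelled P1 DMEM replicate 2, and P3 DMEM replicate 3 is labelled P3 ACM replicate 2. The highest table values of NFKBIA were therefore 14.4 in P1 DMEM replicate 2, 14.3 in P1 DMEM replicate 3 and 14.2 in P3 ACM replicate 2, on a log2 scale. Under these labels 2 of the 9 genes had p of 0.05 or less in the F test, as did 14.5% of all genes. The P1 groups there hold other arrays: P1 ACM those the scanner output calls P1 DMEM replicates 1 and 2 and P3 ACM replicate 3. The array called P1 DMEM replicate 3 stays in P1 DMEM. A shared sign at P1 is thus not a repeat of the comparison above. The means at P1 were lower in ACM for all 9 genes (median −0.74, from −0.28 to −1.08), those at P3 were higher for 8 (median 0.08), and none passed the thresholds. Among all genes there, 0.266% passed as higher and 1.31% as lower at P1, and 1.97% and 4.14% at P3.

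The levels of the 9 genes moved together from array to array. Over the 12 arrays the Pearson correlation between pairs of them ran from 0.68 to 0.96 with a median of 0.86 over 36 pairs, and after the group means were taken out from 0.73 to 0.97 with a median of 0.89. With NFKBIA, the correlation was 0.93 for TNFAIP3, 0.89 for TRAF1, 0.88 for NFKBIE, 0.86 for RELB, 0.85 for ICAM1, 0.85 for BIRC3, 0.78 for NFKB1 and 0.74 for TNFAIP2. These points share 3 slides and 4 groups, so the values describe these arrays only.

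Among 20095 genes well above background on all 12 arrays, those most like NFKBIA were TNF (0.97), which encodes the cytokine that activates the pathway, RIPK2 (0.95), a kinase that relays NOD receptor signals, CSF2 (0.94), NUAK2 (0.93) and CXCL2 (0.93). TNFAIP3 ranked 8 and TRAF1 19 in this order, and TNFAIP2, the least like of the 9, ranked 149.

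The rest of the pathway was read from 6 lists with 73 genes, all of them tested. The secreted targets, which are chemokines, cytokines and other released proteins, were nearest to the 9 genes. In the F test by replicate number 12 of 12 had p of 0.05 or less, as did 5.12% of all genes. That test was chosen after the values of the 9 genes were seen. The secreted targets vary with the 9, so this count is not 12 separate observations. ACM above DMEM in replicates 1 and 2 and below in 3, at both passages, held for 9 of the 12, beside 4.47% of all genes. With NFKBIA, 8 of 12 correlated by more than 0.7, as did 0.878% of all genes. CXCL8, the neutrophil chemokine interleukin-8, had levels of −0.52, 0.51 and 2.78 in P1 DMEM, −2.07, −3.25 and 1.55 in P3 DMEM, 1.38, 2.06 and −1.95 in P1 ACM and 3.27, 1.32 and −1.92 in P3 ACM. Its replicate 3 was thus the highest in DMEM and the lowest in ACM at both passages, over a range of 6.53. CXCL8 was picked here after its values were seen.

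Other intracellular and surface targets were mixed, with 8 of 16 at p of 0.05 or less in that F test. With NFKBIA, 4 of 16 correlated by more than 0.7. The shares over all genes were 5.12% and 0.878%. An F test gives no direction. ACM above DMEM in replicates 1 and 2 and below in 3, at both passages, held for 3 of the 16, beside 4.47% of all genes. These were SOD2, IER3 and VCAM1. SELE and IRF1 were also among the 8, and correlated with NFKBIA by 0.43 and 0.46. Of the other negative regulators 2 of 8 reached p of 0.05 or less, TNIP1, which encodes a partner of A20, and ZC3H12A, an RNase that cuts inflammatory transcripts. Of the other NF-κB and IκB family genes it was 1 of 6, NFKBIZ. Upstream, 3 of 21 receptors and adaptors (TNFRSF12A, IRAK2 and BIRC2) and 0 of 10 kinases did so in the limma fit. Counts of 1 to 3 genes are too few to describe a list, beside the 5.12% of all genes. The adjusted p was 0.712 for each gene named from these lists.

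**Figure D4:**
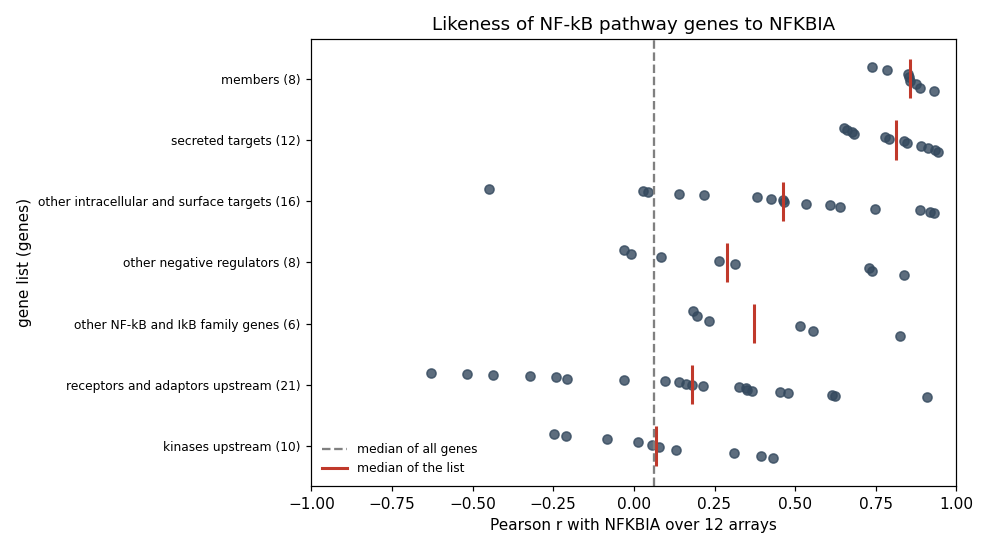
Pearson correlation with NFKBIA over the 12 arrays (x axis) for the genes of each list, with the list median in red and the median of all genes dashed. The other 8 measured genes lie between 0.74 and 0.93, the secreted targets between 0.65 and 0.94, and the kinases between −0.25 and 0.43.

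Of the 73 genes 3 passed the thresholds as higher in ACM at P1 and 0 as lower, and 0 passed at P3 in either direction. The share at P1, 4.11%, was below the 13.5% of all genes that passed as higher. All 3 were receptors upstream of NF-κB: CD40, a receptor of the tumor necrosis factor family, and TLR2 and TLR4, receptors for bacterial products. CD40 differed by 1.09 with an SE of 0.31 and was well above background on 3 P1 ACM and 2 P1 DMEM arrays. TLR4 was so on 3 and 1, and its measured difference of 1.47 (SE 0.43) becomes at least 2.01-fold with the dim DMEM arrays at their detection limit. TLR2 was well above background on 3 P1 ACM arrays and no P1 DMEM array and was at least 1.27-fold higher in ACM, with measured means of −5.92 and −7.57. As TLR2 passed the filter on dim probes only through P1 ACM, its call is given as a description, and without it 2 of 72 genes passed. The limma adjusted p was 0.103 for each.

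The levels of these probes on each slide were compared next. P3 ACM replicate 1, on slide 1 with the P1 ACM arrays, had levels of −4.17 for CD40 and −5.08 for TLR4, whereas P3 ACM replicates 2 and 3, on slide 2, had −5.52 and −5.05 for CD40 and −7.08 and −6.58 for TLR4. With slide as a fixed block the P1 differences were 0.19 for CD40, −0.29 for TLR2 and −0.11 for TLR4, and none of the 73 genes passed at P1. Medium and slide cannot be fully told apart here. With quantile normalization, which moved the median difference of all genes at P1 from 0.15 to 0.00, those differences were 0.37, 0.55 and 0.54 and none of the 3 receptors passed.

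By group of the pathway, the median difference at P1 was −0.34 for the other intracellular and surface targets, −0.18 for the secreted targets, −0.19 for the other family genes, −0.14 for receptors and adaptors, −0.09 for kinases and 0.00 for the other negative regulators, beside 0.15 for all genes. At P3 the secreted targets had a median of 0.85, with 11 of 12 higher by sign (12738 of all 25275 genes) and 0 past the thresholds, while under the labels of the authors' table it was 0.28, with 9 of 12 higher, and −1.07 at P1. At P3 the medians of the other 5 lists lay between −0.21 and 0.16, beside 0.00 for all genes.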

How the data were processed

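Cy3-labelled RNA of 12 samples was hybridised to single-colour Agilent whole human genome arrays. The authors deposited scanner output of Agilent Feature Extraction 11.0.1.1, with a background-corrected intensity per spot that is not normalized between arrays, and a table of log2 values of 30569 probes, used only as an alternative. Samples were grouped by their labels. Here 1377 control spots and outlier spots were left out, spots of a probe were averaged, and log2 intensity minus the array's 75th percentile was used. Symbols came from the RefSeq table (25771 of 34127 probes, 75.5%). Of the probes, 31078 were kept, those well above background throughout 1 or more groups. All 12 arrays entered 1 limma 3.58.1 fit (R 4.3.3) with 4 group means, two-sided, with Benjamini-Hochberg adjustment over kept probes, and the script was tested on simulated data. A gene was read from its brightest probe. The number of arrays limits the precision. P-values measure the spread between these samples.

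The members and lists were chosen with earlier results of these data known. Named were all members, pathway genes past the thresholds (at most 4 a list) and the 5 genes most like NFKBIA. Deviations of same-numbered ACM and DMEM samples correlated by 0.43, 0.19 and 0.27 at P1 and by 0.23, −0.19 and 0.06 at P3. Deviations from a mean of 3 samples sum to 0, so these values cannot establish pairs. At P3 some samples of different numbers correlated more, ACM replicate 3 with DMEM replicate 2 by 0.43 and ACM replicate 2 with DMEM replicate 1 by 0.28. The numbers are thus not shown to be pairs at either passage, and the main fit uses no pairing. The alternatives tried were normexp with an offset of 50, quantile normalization, the authors' table, other filters on dim probes, only the arrays compared, other eBayes settings, slide as a block, the replicate block, the methods' t-test, the mean of a gene's probes and leaving out each array. The F test by replicate number was added after seeing the data. Figures were drawn with matplotlib 3.10.9.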

Additional observations from a re-analysis of the deposited data

How the results depend on the processing

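None of the 9 genes passed the thresholds at P1, P3 or for the difference between passages under quantile normalization, normexp with quantile normalization, the table of the authors, the filters on dim probes, only the arrays compared, other eBayes settings, slide as a random block, the replicate block, the methods' t-test or the mean of a gene's probes. The exceptions were slide as a fixed block, with 1 gene at P3 (NFKBIE, 1.35, unadjusted p 0.0483, adjusted p 0.977 in limma) and 8 for the difference, and the omission of P1 DMEM replicate 1, where counts at P1 ran from 0 to 1 over the arrays left out. At P3 and for the difference leaving out an array gave 0 throughout. The replicate block changed no call of the 9 genes.

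Signs at P3 turned for NFKB1 with normexp (−0.0065), for RELB (0.41), TNFAIP2 (0.38) and ICAM1 (−0.0061) in the table of the authors, and for RELB and TNFAIP2 with slide as a fixed block (1.11 and 1.17) or a random block (0.31 and 0.33). The cause was not tested. Over the arrays left out, the P1 difference ranged from −0.46 to 0.33 for NFKBIA, −0.47 to 0.26 for NFKBIE, −0.37 to 0.089 for NFKB1, −1.0 to 0.17 for TNFAIP3, −0.98 to 0.21 for BIRC3, −0.51 to 0.47 for TRAF1 and −0.43 to 0.36 for ICAM1. At P3 it ranged from −0.056 to 0.66 for NFKBIA, −0.18 to 0.43 for NFKBIE, −0.11 to 0.23 for NFKB1, −0.37 to 0.11 for RELB, −0.56 to 0.29 for TNFAIP2, −0.25 to 0.32 for ICAM1, 0.00012 to 1.34 for TNFAIP3, 0.13 to 1.35 for BIRC3 and 0.17 to 0.98 for TRAF1. The difference between passages ranged from −0.82 to 0.094 for NFKBIA, −0.65 to 0.20 for NFKBIE, −0.43 to 0.088 for NFKB1, −0.73 to 0.043 for RELB and −0.47 to 0.32 for ICAM1, with the highest value of each without P1 DMEM replicate 3.

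Of the 73 pathway genes, 3 passed at P1. This became 1 with quantile normalization (IRF1, lower in ACM), 1 with normexp (PTGS2, lower), 2 in the table of the authors (CXCL2, −2.08, and NFKBIZ, −1.18, both lower, in place of 3 higher), and 0 with only probes well above background on all 12 arrays, with slide as a fixed block and with slide as a random block, and 3 to 4 over the arrays left out. At P3, 0 became 1 (SELE, lower) with quantile normalization, with only the arrays compared and with the replicate block, 4 with slide as a fixed block (EFNA1, TNFAIP6, VCAM1 and ZC3H12A, higher), 1 with slide as a random block (TNFAIP6, higher), and 0 to 5 over the arrays left out: 5 without P3 ACM replicate 3, 3 without P3 DMEM replicate 3 and 1 without P3 DMEM replicate 1. These genes were named after their values were seen. The count of the 9 genes at p of 0.05 or less by replicate number was 2 in the table of the authors and 8 to 9 over the arrays left out.

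Only the arrays compared gave no value for the difference between passages, and no slide gave a value of ACM against DMEM at 1 passage.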
